A study of Homo sapiens with 4 samples.

Results

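Polyamine synthesis and catabolism were followed through 10 genes in HGC-27, an established human gastric carcinoma cell line, after knockdown of the deubiquitinase USP47. The 10 genes were SMS, SRM, ODC1, AMD1, SAT1, SMOX, PAOX, OAZ1, OAZ2 and AZIN1, of 63568 gene identifiers counted, and each was matched by its symbol. The set was chosen by the fall of SMS counts in the knockdown, seen in an earlier look at these libraries, to ask whether the other genes of the pathway moved with it. For that reason the values of SMS are described here without a test, and only the other 9 genes, which were listed for their function with those earlier results known, are given with one.

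RNA-Seq covered 4 libraries, all from HGC-27 cells infected with a lentivirus. In 2 of them the virus carried a scrambled control shRNA, and in the other 2 an shRNA against USP47. The study used more than 1 USP47 shRNA and speaks of shRNAs in the plural for the RNA-Seq as well. Which of them each knockdown library carried is not given in the sources used here, so the knockdown libraries may differ in it. The series describes its samples as biological duplicates, whereas the methods speak of triplicates, and 1 line of the series' text names a DMSO vehicle that the sample labels do not. Separate cultures are not named for these libraries, so p-values measure the spread between these libraries. That spread may be technical, and in the knockdown it may also hold a difference between shRNAs. Total counts on genes ran from 15649899 to 20140273 per library. USP47 itself was counted 1357 and 1297 times with control shRNA and 749 and 309 times with USP47 shRNA, which left 49.3% and 29.5% of the mean control level after scaling for library size. DKK3 overlaps USP47 on the opposite strand and had 28 to 56 counts. Of 6 epithelial markers, KRT18 and KRT19 were counted at most 1 time in a library and CDH1 between 8 and 28 times, while the mesenchymal VIM was counted 7201 to 9236 times. CDH2, also on the mesenchymal list, was counted 3 to 10 times. In CPM, which are counts scaled to a common library size, the epithelial markers summed to between 2.30 and 2.55 in controls and between 2.07 and 2.16 in the knockdown, and 3 mesenchymal markers to between 541 and 545 and between 380 and 534. Of the latter FN1 was counted 1240 and 1448 times in controls and 545 and 459 times in the knockdown, and the part of such shifts in the results was not tested. Among 6 gastric epithelial markers, MUC6 and CLDN18 passed 10 counts in a library, and the sum was between 9.63 and 11.1 CPM in controls and between 8.16 and 10.2 CPM in the knockdown. Leukocyte markers (3 genes) summed to between 0.767 and 1.04 CPM in a library and endothelial ones (2 genes) to between 0.118 and 0.561 CPM. No marker of these lists was at 0 in every library.

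Polyamines are small, positively charged amines that bind nucleic acids and are needed for translation and proliferation. Ornithine decarboxylase (ODC1) makes putrescine, and AMD1 makes decarboxylated S-adenosylmethionine, the donor of aminopropyl groups. Spermidine synthase (SRM) adds such a group to putrescine, and spermine synthase (SMS) adds another to spermidine. SAT1 acetylates spermidine and spermine, PAOX oxidises the acetylated forms, and SMOX oxidises spermine back to spermidine. The antizymes OAZ1 and OAZ2 bind ornithine decarboxylase and lead it to the proteasome without ubiquitin, and the antizyme inhibitor AZIN1, a relative of ornithine decarboxylase without its activity, sequesters them.

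The rest of the pathway did not move with SMS in a single direction. Among the 9 other genes, all of which passed the filter on low counts, ODC1, SAT1 and SMOX were lower in the knockdown and SRM was higher by edgeR's quasi-likelihood test with a Benjamini-Hochberg threshold of 0.05. AMD1, PAOX, OAZ1, OAZ2 and AZIN1 were not called. Thus 3 of 9 were called lower, where 9.56% of the 21932 genes tested were called lower, and 1 of 9 was called higher, where 6.52% were. The median log2 fold change was -0.31 over the 9 genes and -0.0083 over all genes tested. The counts depended on single libraries, as did the counts over all genes tested. With 1 library left out, the log2 fold change lay from -0.826 to -0.70 for ODC1 and from -0.867 to -0.69 for SAT1. It lay from -0.993 to -0.627 for SMOX and from 0.548 to 0.805 for SRM. In these bulk libraries a smaller number of cells that express a gene and less RNA per cell cannot be told apart.

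**Figure D1:**
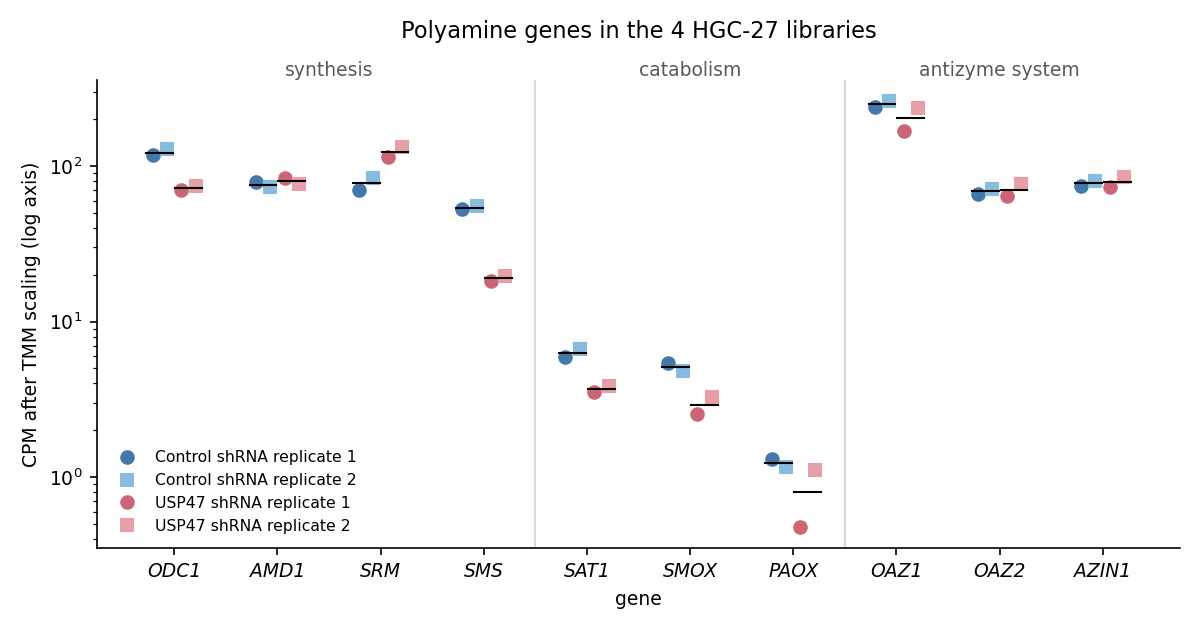
Level of each polyamine gene in each library, as CPM after TMM scaling on a log axis, with circles and squares for replicates 1 and 2 and black lines for the group means. Both knockdown libraries lie below both controls for ODC1, SMS, SAT1, SMOX, PAOX and OAZ1 and above them for SRM.

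SMS, the gene the set was built around, lies on the short arm of chromosome X (GRCh37, 21958827 to 22012955, forward strand). It was counted 893 and 1083 times with control shRNA and 381 and 283 times with USP47 shRNA. After TMM normalization, which scales libraries so that most genes do not change, its level was 52.6 and 55.2 CPM in the control libraries and 18.3 and 19.7 CPM in the knockdown libraries. The means were 53.9 ± 1.81 and 19.0 ± 0.988 CPM (SD, n = 2 per group), so that 34.0% and 36.6% of the mean control level remained and the log2 fold change was -1.51. USP47 differed more between the knockdown libraries than SMS did. In CPM the library with less USP47 was not the one with less SMS. In the deposited TPM, which give the share of each transcript in a library, it was. There SMS was at 9.86 and 7.94 TPM and USP47 at 4.68 and 2.09 TPM in USP47 shRNA replicates 1 and 2. AZIN1, which was not called, reversed in the same way, with 72.9 and 84.4 CPM but 16.5 and 14.3 TPM in these libraries. The order of the knockdown libraries in SMS therefore depends on the scaling. Among the 5632 tested genes with at least the average abundance of SMS, 5 had a lower log2 fold change, and 351 of all 21932 did. These values are those that led to the choice of the gene.

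SRM (chromosome 1, 11114641 to 11120077, reverse strand), which catalyses the step just before that of SMS, moved in the opposite direction. Its counts were 1193 and 1654 with control shRNA and 2369 and 1905 with USP47 shRNA. Scaled, the control libraries were at 70.3 and 84.3 CPM and the knockdown libraries at 114 and 133 CPM, with no overlap between the groups. Its mean of 77.3 ± 9.88 CPM in the controls rose to 123 ± 13.3 CPM in the knockdown (SD, n = 2 each), which is 0.67 on the log2 scale (standard error 0.14, edgeR adjusted p = 0.0128). Without control replicate 1 the log2 fold change was 0.55 and the call was lost (edgeR adjusted p = 0.274). In that fit 1 control library stands alone and is assumed to vary as the knockdown libraries do. The pseudogenes SRMP2 and SRMP3 had 27 to 59 and 2 to 13 counts per library, and those of SMS and OAZ1 had 0.

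The promoters of SMS and SRM are printed because these neighbours in the pathway changed in opposite directions, together with a promoter of ODC1 that holds the letters looked for. They are taken from RefSeq, whose table is on GRCh38.p14, and were placed on GRCh37 by an exact match of all 300 bases, 250 before the start site and 50 after it. Capitals mark the E-box CACGTG, which MYC and MAX are known to bind, and the CCAAT box on either strand (ATTGG on the other).
SMS, chrX:21958577-21958876, forward strand: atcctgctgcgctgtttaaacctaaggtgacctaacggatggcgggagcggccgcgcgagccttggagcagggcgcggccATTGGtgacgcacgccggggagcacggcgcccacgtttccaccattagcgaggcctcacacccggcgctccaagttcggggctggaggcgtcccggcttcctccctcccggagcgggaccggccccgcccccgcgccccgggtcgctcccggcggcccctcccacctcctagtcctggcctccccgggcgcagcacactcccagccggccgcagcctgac
SRM, chr1:11120026-11120325, reverse strand: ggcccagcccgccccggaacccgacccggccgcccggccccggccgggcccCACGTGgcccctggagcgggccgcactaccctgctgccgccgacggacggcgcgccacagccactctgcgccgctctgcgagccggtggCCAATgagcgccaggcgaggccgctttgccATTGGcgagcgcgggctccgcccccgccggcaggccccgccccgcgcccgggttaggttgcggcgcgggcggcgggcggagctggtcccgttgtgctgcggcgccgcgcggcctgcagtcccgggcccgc
ODC1, downstream start site, chr2:10588089-10588388, reverse strand: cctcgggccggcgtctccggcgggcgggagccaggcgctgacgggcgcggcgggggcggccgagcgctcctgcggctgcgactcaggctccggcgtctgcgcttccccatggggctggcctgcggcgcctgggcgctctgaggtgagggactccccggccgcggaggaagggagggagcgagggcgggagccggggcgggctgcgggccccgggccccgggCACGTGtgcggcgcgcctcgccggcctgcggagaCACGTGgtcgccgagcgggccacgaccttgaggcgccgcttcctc
The SRM promoter held an E-box that begins 199 bases before the start site, and the printed ODC1 promoter held 1 that begins 29 bases before it and another just after it. The other ODC1 promoter in the table, at an upstream start site, held no E-box, and the printed one was chosen because it holds the letters. The SMS promoter held no E-box and 1 CCAAT box, 170 bases before the start site. An E-box was found in 7.26% and a CCAAT box in 34.6% of the 35116 promoters in the table. The table had 10 promoters for 7 of the 10 genes, and none for SMOX, PAOX and AZIN1. Among those 10, an E-box was in 2, a CCAAT box in 5, a TATA box (TATAAA) in 1, an AP-1 site (TGANTCA) in 1 and a GC box (GGGCGG) in 9, each searched on both strands. Of all promoters 11.5% held TATAAA, 7.71% TGANTCA and 45.0% GGGCGG. In the printed promoters no E-box overlapped a CCAAT box or a GC box. The entries are not all separate, since 2 of the 3 for AMD1 differ by 1 base in position. A match describes the letters in the window and not a bound site.

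ODC1 (chromosome 2, 10580094 to 10588453, reverse strand), whose enzyme opens the pathway and is known to be rate limiting, fell. It was at 117 and 128 CPM with control shRNA and at 69.9 and 74.4 CPM with USP47 shRNA. The lowest control library lay 42.4 CPM above the highest knockdown library. Its mean of 122 ± 7.84 CPM in the controls fell to 72.1 ± 3.21 CPM in the knockdown (SD, n = 2 each), which is 59.0% of the control level and -0.76 on the log2 scale (standard error 0.13, edgeR adjusted p = 0.00444). The DESeq2 Wald test gave the same call, and without control replicate 2 the log2 fold change was -0.70 and the call was lost (edgeR adjusted p = 0.0608). The snoRNA SNORA80B lies within ODC1 on the same strand and had 27 to 35 counts per library. Its processed pseudogene ODCP had 33 to 48, against 1068 to 2509 for ODC1.

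AMD1 (chromosome 6, 111195973 to 111220082, forward strand), which supplies the aminopropyl donor that SRM and SMS share, did not pass the test. Its levels were 78.6 and 73.5 CPM with control shRNA and 84.1 and 76.2 CPM with USP47 shRNA, so the groups overlapped. The log2 fold change was 0.08, with a 95% confidence interval from -0.20 to 0.36 (edgeR adjusted p = 0.713). A change of the size seen in ODC1 or SRM lies outside this interval. The processed pseudogene AMD1P3 had 10 to 37 counts per library beside 1093 to 1750 for AMD1.

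The enzymes of catabolism were the least abundant of the set, and all 3 had lower means in the knockdown. SAT1 (chromosome X, 23801290 to 23804327, forward strand), the acetyltransferase that is known to be induced when polyamines are in excess, was counted 100 and 131 times with control shRNA and 73 and 55 times with USP47 shRNA. This came to 5.90 and 6.68 CPM against 3.51 and 3.83 CPM, without overlap. SAT1 fell by 0.78 on the log2 scale (standard error 0.19, edgeR adjusted p = 0.0221). SMOX (chromosome 20, 4101627 to 4168394, forward strand), the spermine oxidase, had 92 and 94 counts against 53 and 47, or 5.42 and 4.79 CPM against 2.55 and 3.27 CPM. It fell by 0.83 on the log2 scale (standard error 0.22, edgeR adjusted p = 0.0285), again without overlap between the groups.

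Both calls in catabolism depended on the test and on single libraries. With the DESeq2 Wald test neither SAT1 (adjusted p = 0.109) nor SMOX (adjusted p = 0.134) was called. This leaves ODC1 alone called lower among the 9 genes, of which PAOX was given no adjusted p. DESeq2 called 7.13% of the 16453 genes to which it gave an adjusted p lower. SRM was the 1 gene that DESeq2 called higher, where it called 6.82% of genes higher. Without control replicate 1 edgeR's adjusted p was 0.0816 for SAT1 and 0.216 for SMOX, and without control replicate 2 it was 0.205 and 0.0791. The log2 fold changes in these fits were -0.87 and -0.69 for SAT1 and -0.73 and -0.92 for SMOX. PAOX (chromosome 10, 135192765 to 135205198, forward strand), the oxidase of acetylated polyamines, had 22 and 23 counts with control shRNA and 10 and 16 with USP47 shRNA, and a second annotated gene, ENSG00000254536, overlaps it on the same strand with at most 3 counts. Its levels were 1.30 and 1.17 CPM against 0.481 and 1.11 CPM, so that the groups were separated by 0.0576 CPM. The log2 fold change of -0.71 had a 95% confidence interval from -1.61 to 0.18 (edgeR adjusted p = 0.252). Without USP47 shRNA replicate 2, PAOX had a log2 fold change of -1.34 and was called (edgeR adjusted p = 0.0225), and without USP47 shRNA replicate 1 it was -0.13.

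**Figure D2:**
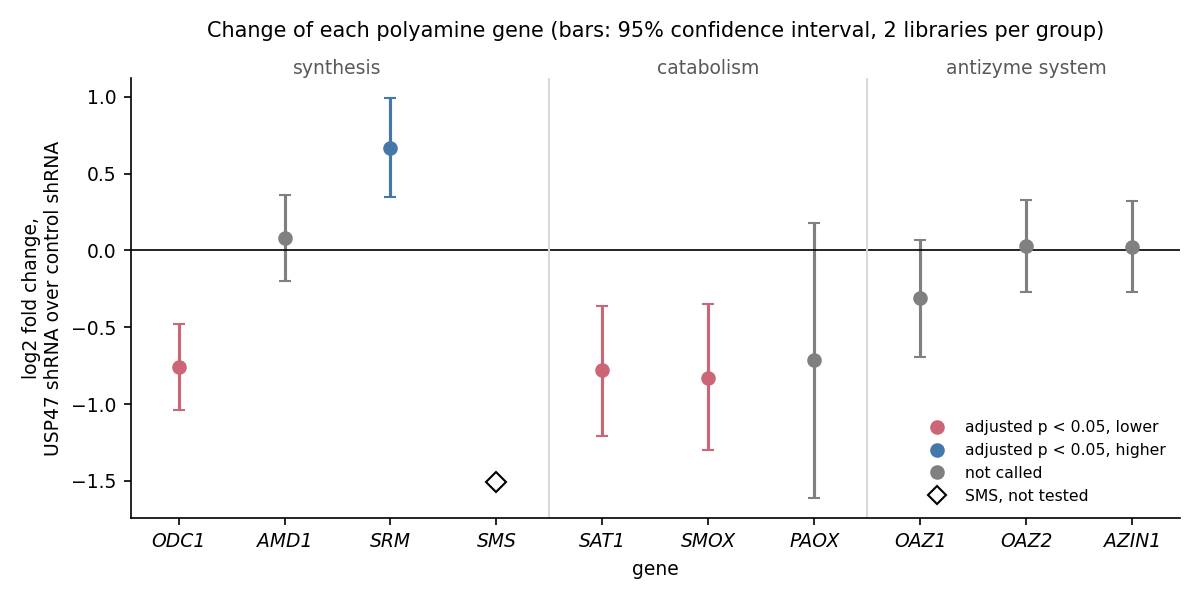
Log2 fold change of each polyamine gene, USP47 shRNA over control shRNA, with 95% confidence intervals from edgeR and 2 libraries per group; SMS is shown as a point without a test. The intervals of ODC1, SAT1 and SMOX lie below 0 and that of SRM above it, while those of AMD1, PAOX, OAZ1, OAZ2 and AZIN1 include 0.

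The antizyme system showed no called gene. OAZ1 (chromosome 19, 2269508 to 2273489, forward strand), the main antizyme and the most abundant transcript of the set, was at 239 and 261 CPM with control shRNA and at 167 and 237 CPM with USP47 shRNA. The knockdown libraries differed from each other by more than the nearer of them differed from the controls, which it missed by 1.74 CPM. The log2 fold change was -0.31, with a 95% confidence interval from -0.69 to 0.07 (edgeR adjusted p = 0.241). Leaving out USP47 shRNA replicate 2 gave -0.58 and a call (edgeR adjusted p = 1.31e-05), whereas leaving out USP47 shRNA replicate 1 gave -0.07. OAZ1 was also called when the replicate number was added as a block (log2 fold change -0.33, edgeR adjusted p = 0.0118). In the deposited TPM, which give the share of each transcript in a library and are not TMM scaled, the groups lay further apart. OAZ1 was at 101 and 97.0 TPM in controls and 70.0 and 74.5 TPM in the knockdown. The uncalled AZIN1 also stood lower in USP47 shRNA replicate 2 than in replicate 1 in TPM, though higher in CPM. The wider gap of OAZ1 therefore depends on the scaling. JSRP1 overlaps OAZ1 on the opposite strand and had 5 to 11 counts per library.

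OAZ2 (chromosome 15, 64979772 to 64995480, reverse strand) was at 65.8 and 71.4 CPM with control shRNA and at 63.9 and 76.2 CPM with USP47 shRNA. AZIN1 (chromosome 8, 103838339 to 103906092, reverse strand), which counters the antizymes, was at 74.3 and 80.3 CPM against 72.9 and 84.4 CPM. For both genes the knockdown libraries lay on either side of both controls. The log2 fold change was 0.03 for OAZ2, with a 95% confidence interval from -0.27 to 0.33 (edgeR adjusted p = 0.910), and 0.02 for AZIN1, with an interval from -0.27 to 0.32 (edgeR adjusted p = 0.923). The sign of both was negative with library size alone as the scaling and with no filter on low counts. Noncoding genes on the opposite strand overlap AZIN1 and OAZ2 with at most 40 counts per library, and their reads cannot be told apart from those of the genes if counting did not use strand.

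The groups did not overlap for 5 of the 9 genes with the knockdown lower (ODC1, SAT1, SMOX, PAOX and OAZ1) and for 1 with the knockdown higher (SRM). Over all genes tested, 31.7% were separated in the first way and 29.3% in the second, so that separation alone is common with 2 libraries per group.

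Levels between genes were compared in TPM, which are scaled by gene length. In control cells OAZ1 was highest, at 98.9 ± 2.68 TPM (SD, n = 2), followed by ODC1 at 56.3 ± 1.45 and SRM at 55.5 ± 2.11 TPM, whose order differed between the control libraries. AMD1 at 29.6 ± 4.07 TPM and SMS at 27.4 ± 1.55 TPM were also not separated by their spread. AZIN1 at 16.4 ± 0.577 TPM and OAZ2 at 12.2 ± 0.398 TPM came next, each apart from its neighbours. The catabolic genes were the lowest, with SAT1 at 3.43 ± 0.00675 TPM, SMOX at 1.42 ± 0.251 TPM and PAOX at 0.731 ± 0.118 TPM. In the knockdown SRM was the highest of the 10 genes, at 81.5 ± 7.89 TPM, and OAZ1 second, at 72.3 ± 3.22 TPM. SRM and OAZ1 were at 87.0 and 70.0 TPM in USP47 shRNA replicate 1 but close, at 75.9 and 74.5 TPM, in replicate 2. SMS, at 8.90 ± 1.36 TPM, then ranked 7, below AZIN1 and OAZ2.

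**Figure D3:**
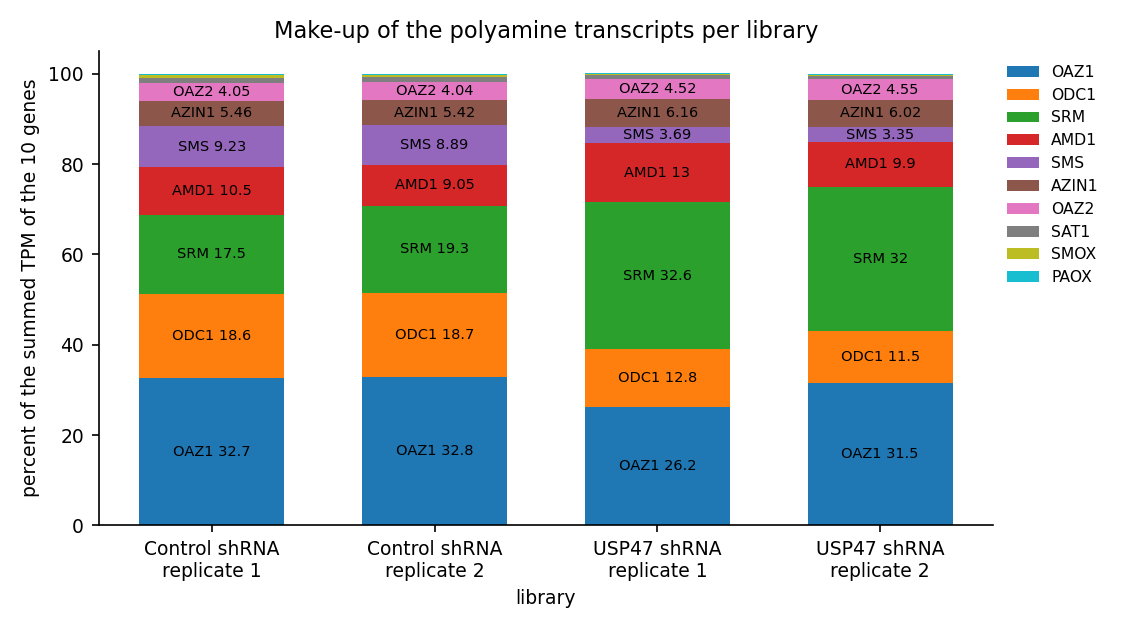
Share of each gene in the summed TPM of the 10 polyamine genes, 1 bar per library. SRM made up 17.5% and 19.3% of the sum in control libraries and 32.6% and 32.0% in knockdown libraries, while SMS went from 9.23% and 8.89% to 3.69% and 3.35%.

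Ratios between genes within a library do not depend on how libraries are scaled. The ratio of SRM counts to SMS counts was 1.34 and 1.53 with control shRNA and 6.22 and 6.73 with USP47 shRNA, a change of 4.53-fold. The ratio of SRM to ODC1 was 0.602 and 0.659 in the controls and 1.63 and 1.78 in the knockdown, a change of 2.71-fold. In control libraries ODC1 was therefore counted more often than SRM, and in knockdown libraries less often. ODC1 was counted 2.22 and 2.32 times as often as SMS with control shRNA and 3.81 and 3.77 times as often with USP47 shRNA, so that its fall was smaller than that of SMS by 0.74 on the log2 scale. The ratio of SAT1 to SMS went from 0.112 and 0.121 to 0.192 and 0.194. For ODC1 and its antagonist OAZ1, the ratio was 0.488 and 0.489 in the controls and 0.419 and 0.313 in the knockdown, where the libraries again stood apart. Relative to AZIN1, ODC1 went from 1.57 and 1.59 to 0.958 and 0.881. These ratios were not tested, since SMS chose the set and an exact permutation of 2 against 2 libraries cannot pass the threshold.

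The other genes of polyamine metabolism were taken from 6 lists by function, 50 genes in all, of which 39 passed the filter on low counts. Of these, 5 were called lower and 4 higher, where 9.56% and 6.52% of all genes tested were, and the median log2 fold change was 0.079. Shares so near those of all genes are no result about the lists, and the same holds for the counts in each list below, which have 9 tested genes or fewer. With either control library left out fewer were called, as over all genes tested. Ornithine, the substrate of ODC1, comes from arginine, and of 7 tested genes of its supply ASS1 alone was called. ASS1, which makes the arginine precursor argininosuccinate, went from 399 and 401 to 132 and 210 CPM, or -1.23 on the log2 scale (standard error 0.20, edgeR adjusted p = 0.00381). The arginases ARG1 (log2 fold change 1.33, edgeR adjusted p = 0.0721) and ARG2 (0.42, edgeR adjusted p = 0.0912) were not called. ARG1 had few reads, with 10 and 5 counts with control shRNA and 25 and 12 with USP47 shRNA. ARG2 had 237 to 357 counts per library.

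In the supply of S-adenosylmethionine, 0 of 7 tested genes were called by edgeR and 0 by DESeq2, with 1 lower and 1 higher at an unadjusted p under 0.05. MAT2A, the methionine adenosyltransferase of proliferating cells, was at 433 and 413 CPM against 377 and 363 CPM (log2 fold change -0.19, edgeR adjusted p = 0.349). BHMT was at 0 counts in every library.

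Each aminopropyl transfer by SRM or SMS releases methylthioadenosine, which a salvage route returns to methionine. Of its 5 genes, all tested, MTAP and APIP were called lower and ADI1 higher, and the other 2 were not called. With DESeq2 or library size alone 1 was called lower. With either control library left out fewer were called, and with USP47 shRNA replicate 1 left out more, as over all genes tested. MTAP, the phosphorylase that opens the route, went from 50.4 and 46.8 to 34.7 and 30.0 CPM, or -0.58 on the log2 scale (standard error 0.13, edgeR adjusted p = 0.0171). APIP, a dehydratase of the route, had a log2 fold change of -0.56 (edgeR adjusted p = 0.0385). ADI1, the dioxygenase near its end, went from 47.3 and 54.3 to 82.7 and 81.4 CPM, a log2 fold change of 0.69 (edgeR adjusted p = 0.00742).

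Spermidine is also the donor for hypusine, a modified lysine of the translation factor EIF5A. Of the 5 genes tested here 0 were called by edgeR and 0 by DESeq2, with 1 higher at an unadjusted p under 0.05, and all 5 log2 fold changes were above 0, from 0.06 to 0.36, as were 10788 of the 21932 over all genes. With USP47 shRNA replicate 1 left out more were called higher, as over all genes tested. EIF5A itself was at 214 and 238 CPM against 258 and 322 CPM (edgeR adjusted p = 0.127), and reads of its near-identical copy EIF5AL1 are uncertain.

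Among 9 tested genes of transport, CAV1 was called lower and SLC7A2 higher. With either control library left out the call of SLC7A2 was lost, and fewer were called over all genes tested. With either knockdown library left out more were called in this list and over all genes. CAV1, which codes for caveolin and has been linked to polyamine uptake, went from 21.9 and 25.6 to 10.9 and 11.4 CPM (log2 fold change -1.09, edgeR adjusted p = 0.00195). SLC7A2, a carrier of arginine and ornithine, went from 243 and 244 to 338 and 350 CPM (log2 fold change 0.50, edgeR adjusted p = 0.0283). SLC22A2 and SLC22A3, carriers of organic cations, were at 0 counts in every library. The polyamine transporter SLC18B1 was at 13.7 and 12.7 CPM against 9.42 and 9.27 CPM and missed the threshold (edgeR adjusted p = 0.0502).

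In a last list of further regulators, MYC and MAX were called higher and SATL1 lower among 6 tested genes. With either control library left out these calls were lost, and fewer were called over all genes tested as well. With USP47 shRNA replicate 1 left out more were called in this list and over all genes. MYC, a known activator of ODC1 and SRM transcription, went from 335 and 372 to 452 and 617 CPM (log2 fold change 0.59, edgeR adjusted p = 0.0392), and its partner MAX had a log2 fold change of 0.69 (edgeR adjusted p = 0.0105). SATL1, a relative of SAT1, had a log2 fold change of -0.68 (edgeR adjusted p = 0.0488), a call that was lost with the DESeq2 Wald test, with DESeq2 size factors, with library size alone and with no filter on low counts.

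SMS and SAT1 lie on the same chromosome arm, 1.79 Mb apart, so the genes around SMS were read as well. Of 44 annotated genes within 2 Mb of SMS, the members aside, 15 were tested, 0 were called lower and 1 was called higher by edgeR, where 9.56% and 6.52% of all genes tested were, so that these counts are near those of all genes. DESeq2 called 0 of them in either direction, and at an unadjusted p under 0.05 in edgeR 3 were lower and 4 higher. The nearest tested protein-coding genes before SMS were MBTPS2 (55 kb away, log2 fold change -0.34, edgeR adjusted p = 0.125), YY2, which lies within the span of MBTPS2 (-0.70, edgeR adjusted p = 0.150), and CNKSR2 (-0.43, edgeR adjusted p = 0.231). The nearest after it were PTCHD1 (1340 kb away, log2 fold change -0.05), PRDX4 (0.35, edgeR adjusted p = 0.118) and ACOT9 (0.26, edgeR adjusted p = 0.269). The called gene was MAP7D2, with 5 and 3 counts in control and 29 and 15 in knockdown libraries. With either knockdown library left out more genes of this window were called, as over all genes tested.

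**Figure D4:**
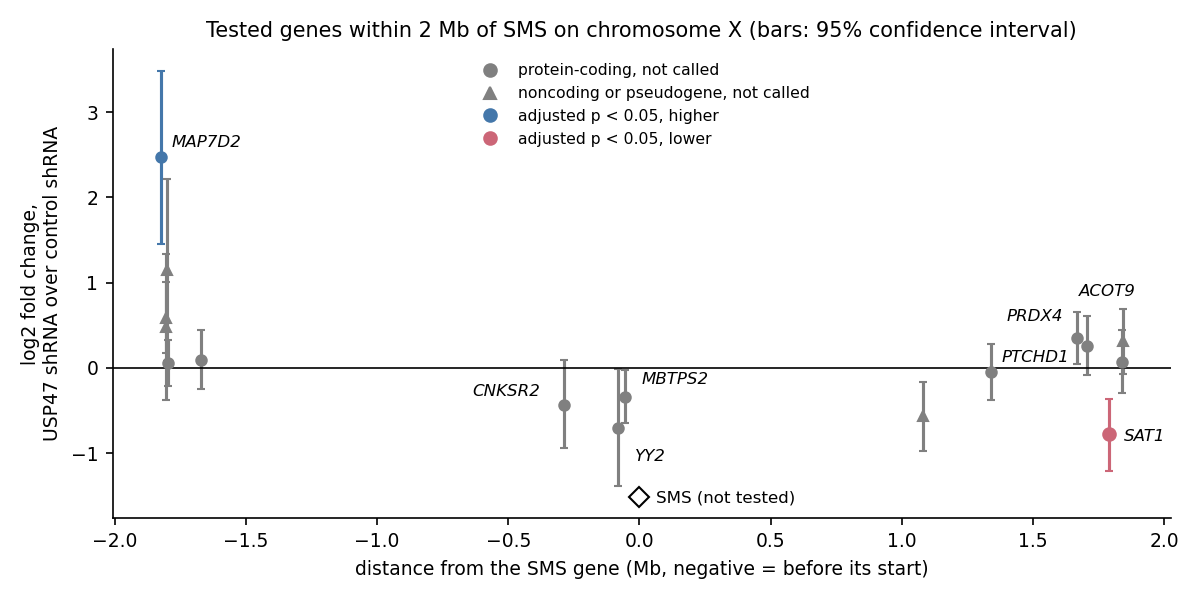
Log2 fold change, USP47 shRNA over control shRNA, of the 15 tested genes within 2 Mb of SMS and of SAT1, against distance from SMS in Mb, with 95% confidence intervals from edgeR. SMS (-1.51) lies lowest, SAT1 (-0.78) is the 1 gene called lower and MAP7D2 (2.47) the 1 called higher.

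**Figure D5:**
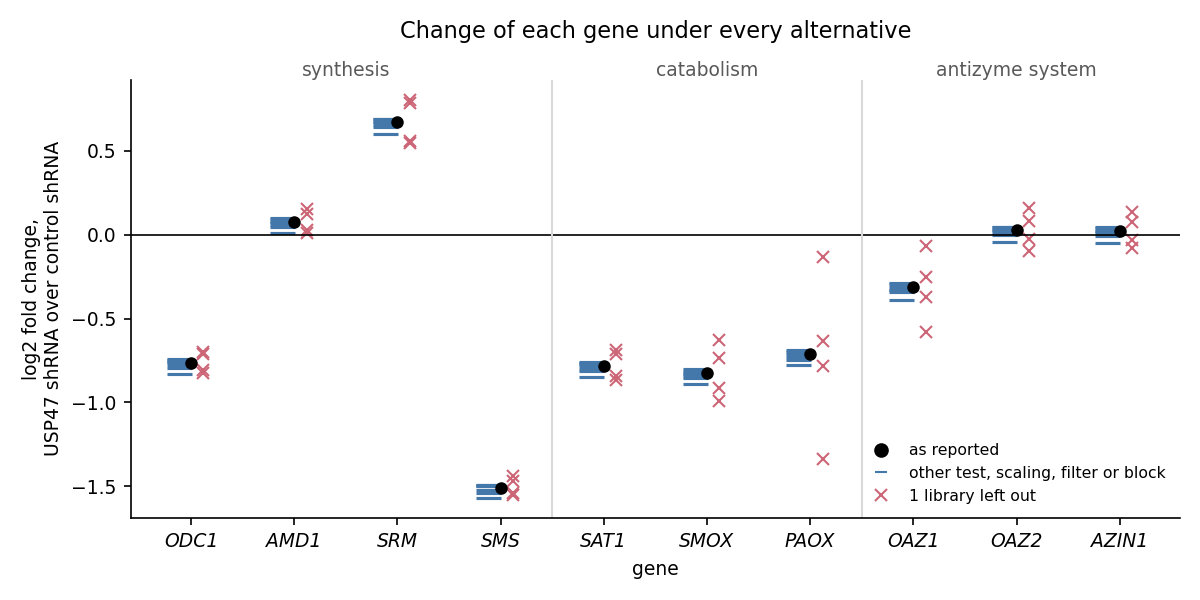
Log2 fold change of each polyamine gene as reported (circles), under other tests, scalings, filters and the replicate block (dashes), and with 1 library left out (crosses). ODC1, SMS, SAT1 and SMOX stay below 0 and SRM stays above it in each of the 11 alternatives, whereas OAZ2 and AZIN1 fall on both sides of 0.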

How the data were processed

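Counts of reads per gene, together with FPKM and TPM values, were deposited by the authors for each of the 4 libraries. Per the methods and the submitters' processing notes, the authors trimmed reads below a base quality of 20, aligned them to hg19 with STAR 2.7.5c and used SAMtools 1.9 to discard poor alignments and duplicates, which without molecular identifiers can compress the counts of abundant genes. featureCounts is named without settings, the strand setting is not given in the sources used here, and the labels and the methods name different library kits. The deposited TPM and FPKM values are the authors' own, and TPM was used for levels between genes and FPKM to check their order.

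Gene identifiers were matched without their version, and 55665 of 63568 had a symbol. Positions are from GRCh37 with GENCODE release 44 lifted to it. The groups were compared with edgeR 4.0.16 in R 4.3.3 (TMM, filterByExpr, robust quasi-likelihood fit, group as the single term, both directions), and p-values were adjusted by Benjamini-Hochberg over 21932 genes. A gene was called at an adjusted p under 0.05. Each standard error came from the F statistic of the test and its log2 fold change. Libraries correlated at 0.993 within controls, 0.987 within knockdown and 0.972 to 0.976 between groups. Alternatives were DESeq2 1.42.0, other scalings and filters, the replicate number as a block and each library left out. The edgeR fit alone was tried on simulated counts, with the same variability set for all genes, and the other steps were not.

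The 10 genes, the lists and the promoter motifs were chosen with earlier results of these data known. Named were all 10 genes, USP47, at most 4 called genes of each list, list genes at 0 counts, the 3 tested protein-coding genes on either side of SMS, overlapping genes and pseudogenes with counts, and the 3 genes nearest to SMS in pattern. ARG1, ARG2, MAT2A, EIF5A, SLC18B1 and MAP7D2 were named in addition, after their values were seen.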

Additional observations from a re-analysis of the deposited data

How the results depend on the processing

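The log2 fold changes of SRM, ODC1, AMD1, SAT1, SMOX, PAOX and OAZ1 kept their sign in every alternative that gave a value. With the DESeq2 Wald test SAT1 (-0.76) and SMOX (-0.80) lost their call and PAOX was given no adjusted p, so that 1 of the 9 genes was called lower. With library size alone SMS was at -1.57, OAZ2 at -0.046 and AZIN1 at -0.049, and with no filter on low counts OAZ2 was at -0.0041 and AZIN1 at -0.0079.

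Over all genes, 2097 were called lower and 1430 higher. DESeq2 called 1173 lower, library size alone 881 higher, and the replicate block 3890 lower and 3529 higher. In the 6 lists DESeq2 and library size alone each called 3 lower and the block 12 higher. Beside SMS, DESeq2 and at least 10 counts in every library called 0 higher, and the block 2 lower and 4 higher. The replicate number was not taken as a pairing, since there are 2 pairs and no source ties the number to a batch (correlation of deviations 0.213). With the replicate block OAZ1 was called at -0.33, and no other member's call changed.

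With 1 library left out, the lone library of a group is assumed to vary like the other group. The log2 fold change then lay from -1.55 to -1.44 for SMS, 0.55 to 0.80 for SRM, -0.83 to -0.70 for ODC1, 0.01 to 0.15 for AMD1, -0.87 to -0.69 for SAT1, -0.99 to -0.63 for SMOX, -1.34 to -0.13 for PAOX, -0.58 to -0.068 for OAZ1, -0.098 to 0.16 for OAZ2 and -0.081 to 0.14 for AZIN1. Of the 9 genes, 0 to 5 were called lower and 0 to 1 higher. Over all genes 909 to 3576 were called lower and 324 to 3773 higher, in the 6 lists 2 to 9 lower and 0 to 13 higher, and beside SMS 0 to 1 lower and 1 to 4 higher. The change of the log2 ratio of SRM to SMS lay from 2.08 to 2.28, that of ODC1 to SMS from 0.71 to 0.77 and that of SAT1 to SMS from 0.67 to 0.79. Without control replicate 1, 2 members changed rank by control TPM, and without control replicate 2, 0 did. The causes were not tested. PAOX had at most 23 counts per library, and the effect of depth on its call was not tested.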

Other observations

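Among 5629 genes with an average abundance within 1 log2 unit of SMS, the genes whose centred log2 CPM lay nearest to that of SMS over the 4 libraries were ASAP2, PAX2 and DCHS2, with Euclidean distances of 0.0951, 0.103 and 0.106. ASAP2, which codes for a GTPase-activating protein of ARF, was at 27.9 and 27.5 CPM with control shRNA and at 9.91 and 10.5 CPM with USP47 shRNA. PAX2, a developmental transcription factor, was at 27.7 and 30.1 CPM against 9.04 and 10.0 CPM, and DCHS2, a large cadherin, at 32.0 and 31.3 CPM against 10.0 and 11.5 CPM. The likeness describes 4 libraries in 2 groups and says nothing of shared control.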
